A study of Mus musculus with 10 samples.

Results

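The regions described here are stretches of DNA outside transcription start sites that carried more acetylated histone H3 lysine 9 (H3K9ac) in undifferentiated 3T3-L1 cells than at a later time, and beside which the transcription factor C/EBPβ was listed 6 h after induction but not before it. 3T3-L1 is a mouse fibroblast line that can be turned into adipocytes in culture. They were chosen by the presence of a C/EBPβ 6 h peak at a gap under 1000 bp, overlap included, and the absence of a C/EBPβ 0 h peak at that gap. The rule was met by 451 of the 4429 H3K9ac regions listed at 0 h (10.2%), out of 13903 H3K9ac regions at all times, and they are called gaining regions below. The comparisons are with 792 regions of the same list near a C/EBPβ 0 h peak (pre-bound regions) and with 3186 regions near no C/EBPβ peak at either time (regions without C/EBPβ).

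All libraries came from the 1 cell line, grown in high-glucose DMEM with fetal bovine serum and antibiotics. C/EBPβ was profiled by chromatin immunoprecipitation and sequencing at 6 h after induction and in undifferentiated cells (0 h). The glucocorticoid receptor (GR) was profiled at 6 h with 2 antibodies, and H3K9ac at 0 h, at 24 h and at 240 h (10 days). The hormones used for induction are not named in the labels beyond a standard protocol, and each factor and time is 1 library of unknown depth. No value therefore has a replicate error, and no p-value across cultures can be had. Intervals are 95% Wilson intervals for shares and 95% Newcombe intervals for differences, and both cover counting error only.

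H3K9ac is a mark of active promoters and enhancers, laid down by acetyltransferases that transcription factors recruit. C/EBPβ is a basic leucine zipper factor that binds DNA as a dimer and is among the first factors to act when preadipocytes are induced, upstream of the adipocyte regulators PPARγ and C/EBPα. GR is a nuclear receptor that enters the nucleus when it binds glucocorticoid, a usual component of adipogenic hormone mixtures. The positions are on mouse build mm8, for which no gene annotation was used here, so the regions are given by position and no gene is assigned to them.

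Because the regions were selected on the C/EBPβ lists, their C/EBPβ values are a description. In all, 1067 regions acetylated at 0 h were near C/EBPβ at 6 h. Of these, 451 (42.3%) were gaining regions and 616 were also near a C/EBPβ 0 h peak. The opposite pattern, a C/EBPβ peak at 0 h and none at 6 h, was seen at 176 regions (3.97%). The 6 h list is the longer, with 20746 peaks at 6 h and 10359 at 0 h. When the 6 h list was limited to its 10359 highest peaks, which have heights of 18 and over, 171 regions (3.86%) still met the rule and 330 (7.45%) had the opposite pattern. Which of the patterns was the more frequent thus turned with this cut. The cut changed the length of the 6 h list and its lowest height together, while the 0 h list kept heights from 12. Their effects cannot be told apart here.

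Gaining regions mostly held a single, low C/EBPβ peak. Exactly 1 peak at 6 h lay near 404 of them, 2 peaks near 44 and 3 peaks near 3, and the 451 regions shared 472 different peaks. Peak height is the authors' whole-number read signal, with 12 the lowest value listed. The highest 6 h peak of a gaining region had a median height of 16, with quartiles of 13 and 20.5 and a maximum of 55. At the 616 regions near C/EBPβ at both times the median 6 h height was 25, with quartiles of 18 and 35 and a maximum of 112. Heights of 12 to 14 made up 35.3% of the gaining regions and 10.6% of the regions bound at both times. New C/EBPβ peaks away from listed H3K9ac regions were as low. The 466 peaks near gaining regions that overlapped no 0 h peak had a median height of 16, and so did the 11733 new peaks near no listed H3K9ac region. These peaks near gaining regions were 3.49% of all 13350 new C/EBPβ 6 h peaks.

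**Figure D1:**
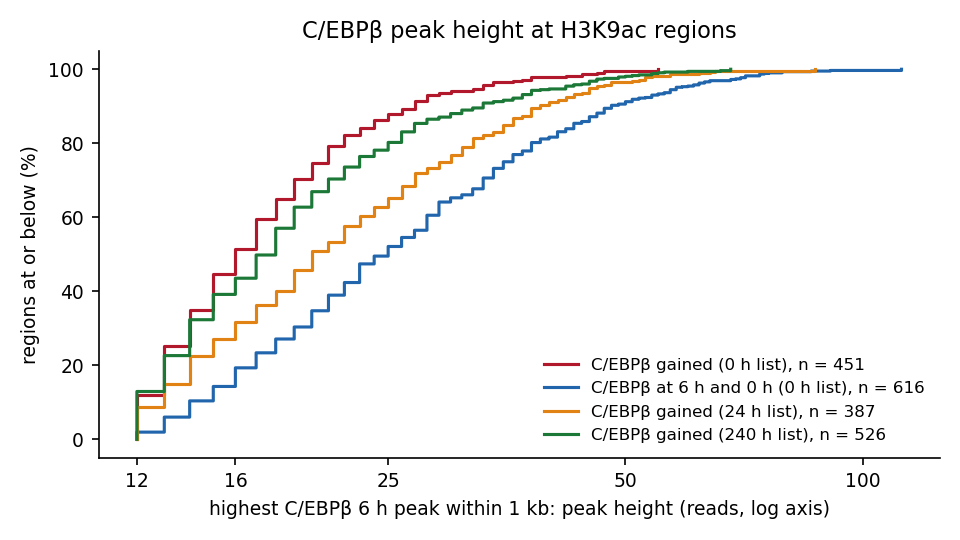
Height of the highest C/EBPβ 6 h peak within 1 kb of an H3K9ac region (horizontal log axis, reads), as the share of regions at or below that height (vertical axis), for gaining regions of the 0 h list, 0 h regions with C/EBPβ at 6 h and 0 h, and the regions of the 24 h and 240 h lists that meet the same rule. The curve of the gaining regions rises first, with a median of 16, and the curve of regions bound at both times last, with a median of 25.

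The 10 gaining regions with the highest C/EBPβ 6 h peaks were examined one by one. The region on chromosome 10 at 38896150 to 38900200 had an average read count of 10 and an FDR, the authors' false discovery rate, listed as 0. At 38898222 to 38898489 it held a C/EBPβ 6 h peak 55 reads high and 28.76-fold enriched over the authors' background, and the nearest C/EBPβ 0 h peak was 34659 bp away. A GR peak of height 25 lay on the same site, at 38898147 to 38898466. This was the highest C/EBPβ peak of any gaining region.

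On chromosome 4, the narrower region at 94948500 to 94949500 was spanned almost entirely by a C/EBPβ peak of height 47, with a GR peak of height 14 inside it. A further pair of regions with high peaks had GR on the C/EBPβ site. The region on chromosome 11 at 16802550 to 16807800 had a C/EBPβ height of 42 and a GR height of 13. The region on chromosome 6 at 22107000 to 22109350 had a C/EBPβ height of 38 and a GR height of 21. High C/EBPβ peaks without GR near the region were found 726 bp beside the chromosome 14 region 27854500 to 27856300 and inside the chromosome 2 region 48289350 to 48292800. Both had a height of 44. The broad region on chromosome 13 at 71196600 to 71206100, 9500 bp wide, held 3 C/EBPβ peaks with heights of 41, 14 and 13 and no GR peak. Of the 10 regions with the highest peaks, 4 were near GR and 6 had the peak inside the region.

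The other 3 of these 10 were not new sites. Their 6 h peaks overlapped a C/EBPβ 0 h peak whose edge lay just beyond 1000 bp from the region. On chromosome 11 at 103214050 to 103215050 the heights were 47 at 6 h and 14 at 0 h. At 109967250 to 109968250 of chromosome 2 they were 46 at 6 h and 43 at 0 h. On chromosome 17, for the region 82152500 to 82153500, they were 46 at 6 h and 42 at 0 h. In all, 5 of the 451 gaining regions owed their place in the class only to such sites. The region on chromosome 13 at 95230600 to 95232200 had heights of 34 at 6 h and 69 at 0 h. The last, at 25063400 to 25064400 of chromosome 10, had 23 at 6 h and 26 at 0 h.

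The edge of the rule can be seen in the regions nearest to it. The members with the widest gap to a C/EBPβ 6 h peak lay 997 bp from it, in the chromosome 6 region 32850450 to 32851750, where its height was 18, and 996 bp on chromosome 13. The nearest regions outside, both on chromosome 6, at 17734650 to 17736700 and at 117169900 to 117172000, missed a 6 h peak by gaps of 1006 and 1013 bp. On the side of the 0 h list, gaps of 1019 bp on chromosome 16 at 45842600 to 45845750 and of 1029 bp on chromosome 2 kept 2 regions in the class. Gaps of 978 bp on chromosome 15 at 103171800 to 103176450 and of 969 bp on chromosome 13 at 91440100 to 91442900 kept 2 others out. Most gaining regions were far from this edge. The nearest C/EBPβ 0 h peak was at a median gap of 21768 bp, with quartiles of 7660 and 57373.5 bp, and 21 regions (4.66%) had one under 2000 bp.

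C/EBPβ bound within the acetylated stretch at most gaining regions. A 6 h peak overlapped 333 of them (73.8%), and at the other 118 the peak lay beside the region. Within the overlapped regions the peaks leaned to the centre. Of 363 region and peak pairs, the peak centre lay past the edge of the region in 24 (6.61%). Of the 339 centres inside, 194 were nearer to the centre of the region than to its edge (57.2%, 51.9 to 62.4%), where even spread would give 50%. At the regions bound at both times it was 310 of 516 (60.1%, 55.8 to 64.2%). The difference was -2.85 points (-9.59 to 3.85), within counting error. Peaks that lay wholly between a pair of separate acetylated regions were rare, 2 of 472 near gaining regions and 1 of 613 near regions bound at both times. A peak that overlapped a region by 1 bp or more was not counted as between. Only 22.6% of gaining regions had another 0 h region at a gap under 1 kb. The low counts therefore do not say how often C/EBPβ lay in such a gap where there was one.

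**Figure D2:**
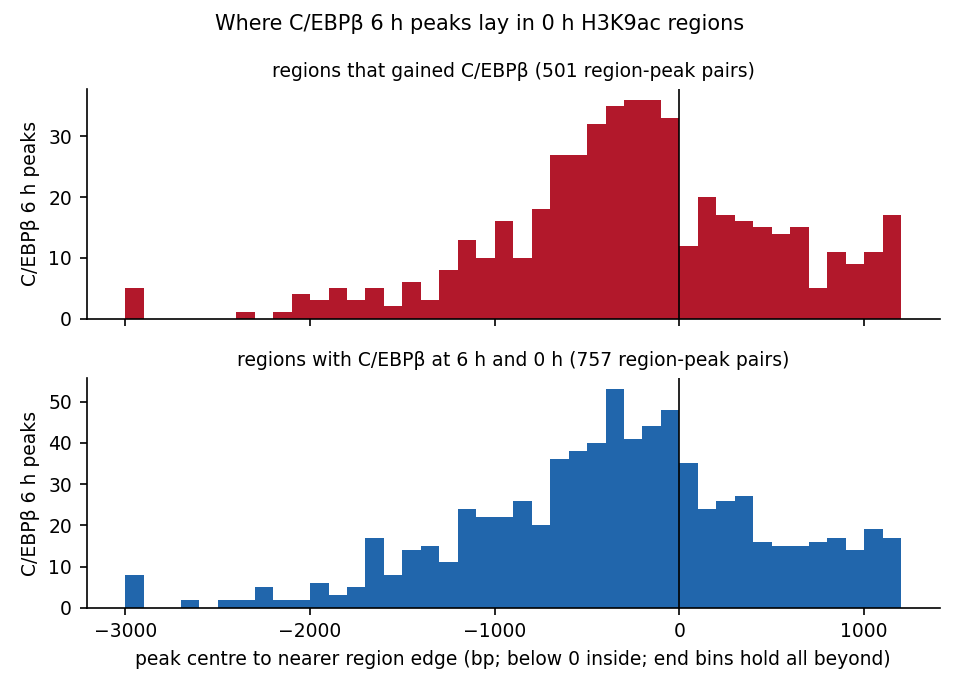
Distance from the centre of each C/EBPβ 6 h peak to the nearer edge of its 0 h H3K9ac region in bp (horizontal axis, values below 0 lie inside the region), as a count of peaks per bin of 100 bp, for 501 pairs at gaining regions (upper) and for regions with C/EBPβ at 6 h and 0 h (lower). Most peaks lie inside the region in both panels.

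The acetylation of the gaining regions was that of somewhat broad 0 h regions. Their median width was 1650 bp, with quartiles of 1150 and 2525 bp, against 1800 bp for pre-bound regions and 1400 bp for regions without C/EBPβ. A wide region has more room for a peak of any kind. Gaining regions were 11.7% of the regions wider than the list's median of 1500 bp and 8.77% of the others, a difference of 2.93 points (1.15 to 4.73). The average read count, the authors' whole-number signal per region, had a median of 11 and a range of 8 to 21 at gaining regions. Its median was 11 at pre-bound regions, with a range of 8 to 32, and 10 at regions without C/EBPβ, with a range of 8 to 25.

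An FDR of 0 was listed for 253 of 451 gaining regions (56.1%), against 50.4% of all 0 h regions. The share was 62.1% at pre-bound regions and 46.7% at regions without C/EBPβ. Gaining regions differed from pre-bound regions by -6.02 points (-11.7 to -0.358) and exceeded those without C/EBPβ by 9.36 points (4.43 to 14.2). The second difference was smaller when regions of like width were compared. It was 5.85 points (-0.727 to 12.9) among regions no wider than the median and 3.62 points (-2.65 to 9.28) among wider ones, and both intervals include 0.

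The 5 gaining regions with the highest average read count were not among the 10 with the highest C/EBPβ peaks. All 5 had an FDR of 0 and no GR peak near. Their C/EBPβ 6 h heights were 12 to 20, against a median of 16 over all gaining regions. With GR near 10.9% of all gaining regions, its absence from 5 says little. The relation of read count to C/EBPβ height over all gaining regions was not tested. The first, on chromosome 6 at 52786350 to 52799650, was 13300 bp wide with a read count of 21, and had a C/EBPβ height of 19 and a C/EBPβ 0 h peak 1339 bp away. On chromosome 3 the region 123195650 to 123198900 had a read count of 21 and a C/EBPβ height of 19. Regions at 64450850 to 64453550 of chromosome 15 and at 34758550 to 34760450 of chromosome 16 had read counts of 19, with C/EBPβ heights of 12 and 14. The fifth, on chromosome 6 at 30529100 to 30532050, had a read count of 18 and a C/EBPβ height of 20.

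GR was not used by the rule, and it lay near more gaining regions than regions without C/EBPβ. A GR 6 h peak was at a gap under 1000 bp of 49 of 451 gaining regions (10.9%, 8.32 to 14.1%), against 3.93% of all 0 h regions. It was near 93 of 792 pre-bound regions (11.7%, 9.68 to 14.2%) and near 32 of 3186 regions without C/EBPβ (1.004%, 0.712 to 1.41%). Gaining regions exceeded regions without C/EBPβ by 9.86 points (7.28 to 13.1). The excess held at either width, with 7.52 points (4.38 to 12.2) among regions no wider than the median and 11.7 points (8.03 to 16.4) among wider ones. Regions without C/EBPβ lack it by definition, so this excess compares regions with and without a C/EBPβ peak. The contrast was not particular to the 0 h list. GR was near 47.0% of the 24 h regions meeting the same rule and 6.65% of 24 h regions without C/EBPβ. In the 240 h list it was near 13.7% and 0.477%. The difference between gaining and pre-bound regions of the 0 h list was -0.878 points (-4.40 to 2.94). Its interval includes 0, and both sign and call turned with the peak threshold. The difference was 6.09 points (0.355 to 13.1) with the higher C/EBPβ 6 h peaks alone and -4.85 points (-9.13 to -0.815) with the higher 0 h peaks alone. Pre-bound regions are a mixture. GR was near 89 of the 616 bound at both times (14.4%, 11.9 to 17.4%). It was near 4 of the 176 with C/EBPβ at 0 h only (2.27%, 0.887 to 5.70%). Gaining regions differed from regions bound at both times by -3.58 points (-7.52 to 0.520), an interval that includes 0.

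**Figure D3:**
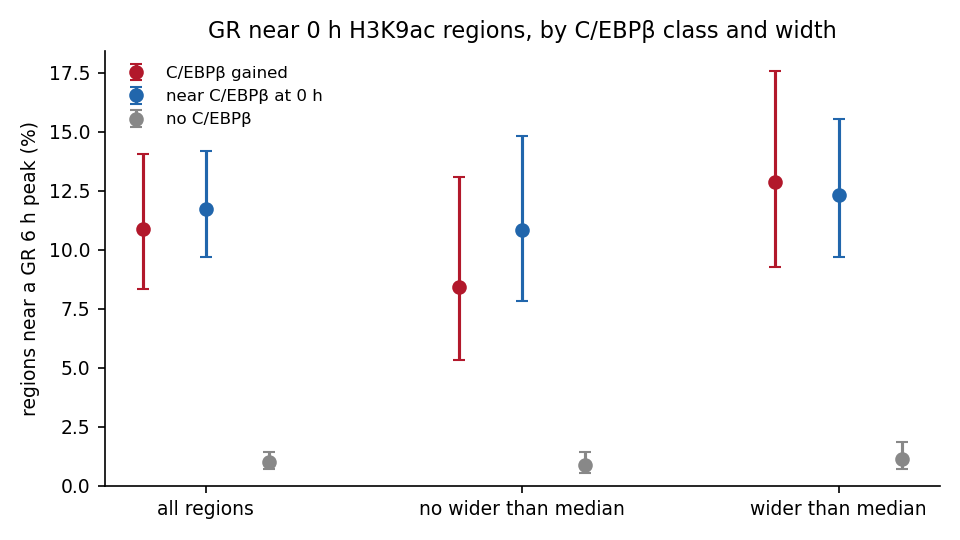
Share of 0 h H3K9ac regions with a GR 6 h peak at a gap under 1000 bp (vertical axis, percent, with 95% Wilson intervals) for gaining regions, pre-bound regions and regions without C/EBPβ, over all regions and among regions up to and above the median width. Gaining and pre-bound regions overlap at 10.9% and 11.7%, and regions without C/EBPβ are at 1.004%. Pre-bound regions pool those with C/EBPβ at both times (14.4%) and those with it at 0 h only (2.27%).

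Of the 48 GR peaks near gaining regions, 43 overlapped a C/EBPβ 6 h peak. Every gaining region has a C/EBPβ 6 h peak near it by the rule, so this count is a description. No such share is given here for the whole GR list. The share near GR was 21.1% (14.99 to 28.7%) for the 133 gaining regions with a C/EBPβ height of 20 and over. This was 14.4 points (7.55 to 22.5) above the 6.60% of those with lower peaks. A rise with height was not particular to gaining regions. Between heights of 12 to 14 and heights of 20 and over, 24 h regions meeting the rule went from 27.3% to 56.0% near GR. The 240 h regions meeting it went from 5.85% to 25.1%. Of new C/EBPβ peaks near no listed region, 6.17% and 21.8% overlapped GR. At gaining regions the share near GR was 13.8% where the FDR was 0 and 7.07% elsewhere, a difference of 6.76 points (0.968 to 12.3). This difference was not split by width. An FDR of 0 was listed for 73.5% of gaining regions wider than the median and 34.7% of the others. GR was near 12.9% and 8.42% of these. Whether the C/EBPβ peak lay inside the region or beside it made a difference of 2.09 points (-5.16 to 7.68), from 11.4% inside and 9.32% beside, within counting error.

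The GR peaks had a median height of 16.5, with quartiles of 13 and 23.25, against a median of 16 over the whole GR list. The highest, of 69, lay on chromosome 16 at the region from 34684000 to 34685550, on a C/EBPβ 6 h peak of height 33, with no C/EBPβ 0 h peak within 139087 bp. The next, in the chromosome 10 region 41581750 to 41583100, had a GR height of 55 and a C/EBPβ height of 24. The third, in the chromosome 2 region 117717550 to 117719400, had a GR height of 45 and a C/EBPβ height of 20. At all 3 sites the GR height was above the C/EBPβ height, although heights from separate libraries were not scaled to each other here.

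The next 6 regions by GR height had GR heights of 25 to 38. On chromosome 8 at 64167500 to 64169350 a GR peak of height 38 lay on a C/EBPβ peak of height 14. At the regions 52695000 to 52696550 of chromosome 2 and 60382050 to 60383650 of chromosome 13, both factors lay beside the acetylated region, with GR heights of 36 and 34. On chromosome 19 at 33147050 to 33149100 the GR peak, of height 28, was the only one of the 10 highest that overlapped no C/EBPβ 6 h peak. The regions 145402300 to 145405850 of chromosome 6 and 62694700 to 62696800 of chromosome 17 had GR heights of 27 and 25, with C/EBPβ heights of 28 and 17. The tenth was the chromosome 10 region with the highest C/EBPβ peak. None of the 10 had a 24 h H3K9ac region nearer than 25700 bp.

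The same rule was then applied to the other H3K9ac lists. It was met by 10.2% of the 0 h, 23.8% of the 24 h and 6.7% of the 240 h regions. Against the 24 h list, the share at 0 h differed by -13.6 points (-15.9 to -11.4). Against the 240 h list it was higher by 3.48 points (2.45 to 4.55). With the C/EBPβ 6 h list cut to the length of the 0 h list the excess over the 240 h list was 0.636 points, with an interval that includes 0 (-0.0357 to 1.35). Among regions with a C/EBPβ 6 h peak near them, the share with no 0 h peak was 42.3% (39.3 to 45.3%) in the 0 h list, 68.0% (64.1 to 71.7%) in the 24 h list and 53.3% (50.2 to 56.4%) in the 240 h list. The 0 h list was the lowest of the 3. Its difference was -25.7 points (-30.5 to -20.8) from the 24 h list and -11.1 points (-15.3 to -6.76) from the 240 h list.

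GR set the 0 h list apart from the 24 h list but not, within counting error, from the 240 h list. Among regions meeting the rule, GR was near 10.9% in the 0 h list, 47.0% (42.1 to 52.0%) in the 24 h list and 13.7% (11.01 to 16.9%) in the 240 h list. Against the 24 h list, the share at 0 h differed by -36.2 points (-41.8 to -30.3), and against the 240 h list by -2.82 points (-6.92 to 1.35). The highest C/EBPβ peak of a region meeting the rule had a median height of 16 in the 0 h list and 20 in the 24 h list, so the lists were compared at like height. The difference from the 24 h list was -21.0 points (-31.5 to -11.4) at heights of 12 to 14, -38.6 (-49.3 to -27.5) at 15 to 19 and -34.9 (-43.9 to -24.7) at 20 and over. It kept its direction in all 3 classes. GR was also near 70 of 1053 24 h regions without C/EBPβ (6.65%), against 1.004% of such regions at 0 h and 0.477% at 240 h. More GR in the 24 h list was thus not confined to regions meeting the rule.

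Seen from the peaks, GR was not detectably more frequent at gaining regions than on new C/EBPβ peaks at large. Of the 466 new C/EBPβ peaks near gaining regions, 43 overlapped GR (9.23%, 6.92 to 12.2%), against 12.4% of all new peaks. Near 24 h regions it was 185 of 463 (40.0%, 35.6 to 44.5%), near 240 h regions 74 of 598 (12.4%, 9.97 to 15.3%), and near no listed H3K9ac region 1339 of 11733 (11.4%). Peaks near gaining regions differed from peaks near no listed region by -2.18 points (-4.56 to 0.839). By height the differences were -0.581 points (-3.21 to 3.86) at 12 to 14, -3.19 (-5.78 to 1.40) at 15 to 19 and -1.83 (-8.06 to 6.14) at 20 and over, where 25 of 125 peaks near gaining regions and 759 of 3477 of the others carried GR. All 4 intervals include 0. The difference from new peaks near 24 h regions was -30.7 points (-35.8 to -25.5).

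**Figure D4:**
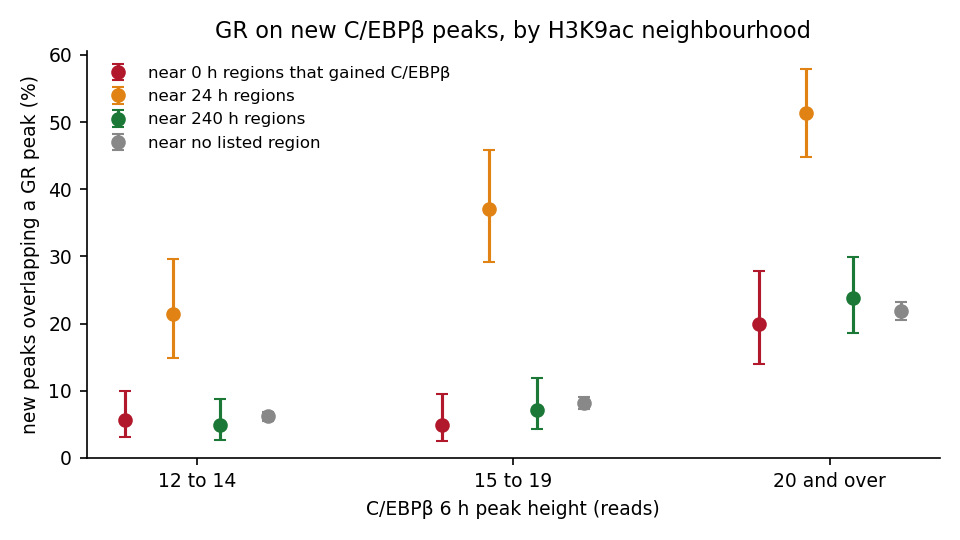
Share of new C/EBPβ 6 h peaks that overlap a GR peak (vertical axis, percent, with 95% Wilson intervals) by C/EBPβ peak height in 3 classes (horizontal axis), for peaks near gaining regions, 24 h regions, 240 h regions and no listed region. Peaks near gaining regions lie with those near no listed region in each class, with 25 of 125 and 759 of 3477 peaks at heights of 20 and over, and peaks near 24 h regions lie above both.

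Few 0 h regions of any class had a region of a later list close by, gaining regions included. The lists hold regions called enriched relative to another time, which limits how often a stretch can enter both the 0 h list and a later list. The low shares are therefore partly set by how the lists were made, and do not say whether the mark persisted. A 24 h region lay within 10 kb of 18 gaining regions (3.99%), against 2.89% of all 0 h regions. The difference from regions without C/EBPβ was 1.32 points (-0.255 to 3.61). A 240 h region lay within 10 kb of 19 (4.21%), against 5.96% of all 0 h regions. The difference from regions without C/EBPβ, of which 6.62% had one, was -2.41 points (-4.17 to 0.00383), with an interval that just includes 0. Within 50 kb it was -6.36 points (-9.99 to -2.27). Within 10 kb it was -4.33 points (-6.56 to -0.636) among regions no wider than the median and -0.285 (-2.70 to 3.28) among wider ones. Among pre-bound regions, 3.16% had a 24 h region and 4.29% a 240 h region within 10 kb. Gaining regions differed from these by 0.835 points (-1.23 to 3.28) and -0.0801 points (-2.31 to 2.49), and both intervals include 0. The median gap to the nearest 240 h region was 228100 bp at gaining regions, 204875 bp at pre-bound regions and 156525 bp at regions without C/EBPβ.

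Gaining regions were spread over all 20 chromosomes with listed regions. Their share of the 0 h regions was between 5.38% on chromosome 18 and 16.1% on chromosome 14. The interval for chromosome 14 (11.3 to 22.6%, 26 of 161 regions) was above the overall 10.2%, and that for chromosome 9 (3.41 to 9.63%, 13 of 225 regions) below it, and the intervals of the other 18 held it. The 20 intervals make no allowance for their number and count neighbouring regions as separate. On chromosome 14, 5 of the 26 lay within 23.8 kb. Neither chromosome is therefore shown to differ from the rest. Chromosome 6 had most gaining regions, 50 of 451 (11.1%), and also 10.1% of all 0 h regions.

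**Figure D5:**
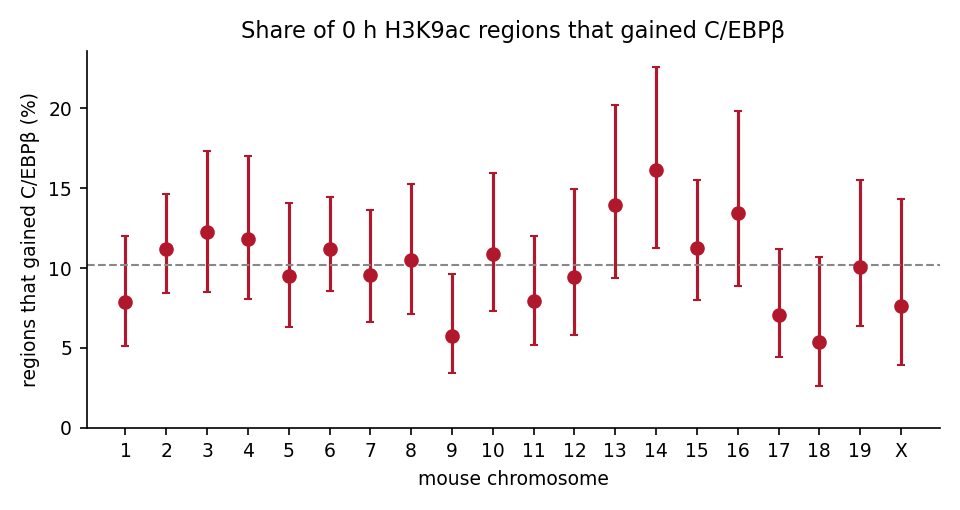
Share of the 0 h H3K9ac regions on each mouse chromosome (horizontal axis) that gained C/EBPβ (vertical axis, percent, with 95% Wilson intervals), with the overall share of 10.2% as a dashed line. Chromosome 14 lies above the line and chromosome 9 below it by more than their intervals, which make no allowance for the number of chromosomes.

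Some gaining regions were neighbours, and some had the same C/EBPβ 6 h peak near them. At gaps under 1 kb they formed 422 groups, of which 29 were pairs, so the intervals above treat as separate some regions that share a peak. Another 0 h region lay at a gap under 1 kb of 102 gaining regions (22.6%), against 18.1% of all 0 h regions. Gaining regions exceeded regions without C/EBPβ by 5.79 points (1.93 to 10.1), and pre-bound regions by 1.91 points (-2.77 to 6.79).

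The chains with most gaining regions, joined by gaps under 50 kb, lay on chromosomes 16, 14, 19 and 1. The chain on chromosome 16 from 34684000 to 34782500 held 6 gaining regions among 11 regions of the 0 h list, with 6 C/EBPβ 6 h peaks and no C/EBPβ 0 h peak along its 98.5 kb. It contains both the gaining region with the highest GR peak and the chromosome 16 region with an average read count of 19 described above. The chain on chromosome 14 from 100669950 to 100693750 held 5 gaining regions of 6 listed within 23.8 kb, with C/EBPβ 6 h heights up to 21 and no GR peak within 1 kb of any. The chain on chromosome 19 from 17304600 to 17348700 held 4 gaining regions of 9 listed, and GR was near 1 of them. Neither of these had a C/EBPβ 0 h peak between its ends. The chain on chromosome 1 from 161525100 to 161617750 also held 4 gaining regions, of 8 listed within 92.65 kb, with C/EBPβ 6 h heights up to 24, no GR peak near its gaining regions and 1 C/EBPβ 0 h peak between its ends.

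The regions with 3 C/EBPβ 6 h peaks were, besides the one on chromosome 13, 116963550 to 116967900 of chromosome 6 and 65822250 to 65823400 of chromosome 16. The peaks on chromosome 6 had heights of 27, 21 and 13, and the higher 2 overlapped GR. Those on chromosome 16 had heights of 15, 12 and 12, and none overlapped GR. No gaining region overlapped any of the 6 regions of input bias that the authors listed.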

How the data were processed

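Per the labels' protocols, 36 bp reads were mapped to mm8 with ELAND, 2 mismatches being allowed, and only unique reads entered, 1 for each start position. Repeats are thus uncovered and the highest peaks capped. How peaks were called, and how the 4 input libraries entered, is not given in the sources used here. The deposited lists give fold enrichment (a ratio over an undescribed background) and peak height (a read signal) for factor peaks, and an FDR (a q-value type measure, in the deposited steps of 0, 6.07e-07, 3.76e-06 and 2.21e-05) and an average read count (a signal) for H3K9ac regions. All 4 are values made by the authors and serve here only within each list. H3K9ac lists hold regions outside transcription start sites called enriched relative to another time, per the labels, so absence from a list does not mean absence of the mark.

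Gaps, overlaps of at least 1 bp and intervals were computed with Python 3.11.15, numpy 2.4.6 and pandas 2.3.3, plots with matplotlib 3.10.9. The code was tested on simulated lists. Named regions are the 5 gaining regions highest by average read count, the 10 by C/EBPβ 6 h height, the 10 by GR height, the 3 with most C/EBPβ peaks, the 3 chains with most gaining regions (and another tied with the last of them) and those nearest the threshold. The classes, lists and comparisons were chosen with earlier results of these data known. Height classes, equal list lengths and the comparison by new peaks were added after the values had been seen. Alternatives covered the gap, peak thresholds, region width and FDR, autosomes and distances. Input libraries were not analysed here.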

Additional observations from a re-analysis of the deposited data

How the results depend on the processing

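The excess of GR at gaining regions over regions without C/EBPβ, and the deficit of the rule in the 0 h list against the 24 h list, kept their direction and an interval without 0 under every alternative run. Over all results, 46 alternatives fixed with the design and 10 added later left direction and call, or the share's interval, as they were. Of the other alternatives fixed with the design, 9 moved a share out of its interval, 7 turned the direction and 9 brought an interval clear of 0. Of the others added later, 2 moved a share, 2 turned the direction, 1 brought an interval clear of 0 and 1 brought 0 into it. No paired analysis was possible because there is a single library for every factor and time.

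The share of 0 h regions meeting the rule was 7.97% by overlap, 9.32% at a gap under 500 bp, 17.6% under 10000 bp, 3.54% with the higher C/EBPβ 6 h peaks alone, 15.4% with the higher 0 h peaks alone, 11.3% among regions with an FDR of 0 and 3.86% with C/EBPβ lists of equal length. GR was near 19.8% of them at 10000 bp, 17.8% with the higher C/EBPβ 6 h peaks, 16.4% with equal lists and 5.76% with the higher GR peaks. The GR difference from pre-bound regions was 0.434 points by overlap, 6.09 with the higher 6 h peaks (0.355 to 13.1), -4.85 with the higher 0 h peaks (-9.13 to -0.815), 1.44 at an FDR of 0, 0.531 among wider regions, 2.10 with the higher GR peaks and 4.63 with equal lists. The cause of these moves was not tested.

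For 24 h regions within 10 kb the difference from regions without C/EBPβ was -0.0640 by overlap, -0.963 with the higher 6 h peaks, -0.517 with equal lists, 2.94 at 10000 bp (1.47 to 4.74) and 2.88 among narrower regions (0.209 to 7.09), the last 2 with intervals above 0. For 240 h regions it was -2.53 at 500 bp, -2.44 at 10000 bp, -2.39 with the higher 0 h peaks, -2.48 on autosomes, -4.33 among narrower regions, -6.36 within 50 kb and -2.59 without the 5 regions whose 6 h peaks overlap a 0 h peak, each with an interval below 0. The difference for 240 h regions was -0.285 among wider regions (-2.70 to 3.28), -0.302 at an FDR of 0 (-2.77 to 3.31) and -1.21 within 5 kb (-2.36 to 0.634). These intervals include 0, as did those by overlap, with the higher 6 h peaks and with equal lists. The excess over the 240 h list fell to 0.636 with equal lists. Unknown depth limits every statement about peaks missing from a list.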

Other observations

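The order of the deposited 0 h H3K9ac list restarts along its length, as if written in runs sorted by FDR and read count, and no label says what a run is. Gaining regions made up 314 of 3298 regions in the first run (9.52%, 8.57 to 10.6%), 120 of 962 in the second (12.5%, 10.5 to 14.7%) and 17 of 169 in the unsorted rest (10.1%, 6.38 to 15.5%). The median width in these runs was 1350, 1950 and 3000 bp in turn. GR was near 9.24%, 13.3% and 23.5% of the gaining regions, the last over 17 regions only.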
